A study of Oryctolagus cuniculus with 4 samples.

Results

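EMP1, MECOM and DAPL1 are genes known from epithelia whose microarray ratios were among the highest of parthenote over fertilised rabbit blastocysts, and they were chosen by those measured ratios. All probes of the 3 genes were taken from the array files by gene name, accession or description, which gave 12 of the 43595 probes tested, 2 for EMP1, 2 for MECOM and 8 for DAPL1. Because the ratios chose the genes, their size and direction are given here as a description and were not tested. Every array held RNA of a parthenote pool labelled with Cy3 and of a fertilised pool labelled with Cy5, and 0 of the 4 arrays had the dyes swapped, so on the arrays the dye and the group cannot be told apart.

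Parthenotes came from oocytes of New Zealand White does activated without sperm by electrical pulses, then cycloheximide and 6-DMAP. They were placed in the oviducts of synchronised recipient does and recovered from the uterus 6 days later. The fertilised controls were blastocysts of artificially inseminated New Zealand White does with induced ovulation, labelled as untreated and flushed at day 6. Each of the 4 pools per group held 7 embryos, so the spread between arrays is a spread between pools of whole blastocysts and not between single embryos.

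EMP1 is a membrane protein with 4 spans of the PMP22 family, found in many epithelia and linked to growth, cell contacts and differentiation. MECOM is a zinc finger transcription factor of the PRDM family, best known from blood stem cells and leukaemia, and its locus gives transcripts that keep or lack the PR domain. DAPL1 is a small protein related to the death-associated protein DAP and was described in differentiating epithelia and in the retinal pigment epithelium. The first epithelium of the embryo is the trophectoderm, the outer layer of the blastocyst. The early blastocyst lies free in the oviduct and uterus, next to a lining of secretory and ciliated cells.

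All probes were oligonucleotides of 60 bases, and the letters show which of them are separate readings of a transcript and which are nearly the same molecule. The MECOM probes A_04_P085613 and A_04_P085612 lie end to end, at positions 2970 to 3029 and 3030 to 3089 of 1 transcript, and do not overlap. The array files place them on the minus strand at chr14:63985233-63988964 and chr14:63985173-63985232, without naming a build. The former reaches over 3732 bases of the genome for its 60 letters, so it crosses an exon junction. Both MECOM probes are shown whole, in lower case, because together they read a stretch on both sides of a junction.
A_04_P085613: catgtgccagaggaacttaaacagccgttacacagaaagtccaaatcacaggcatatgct
A_04_P085612: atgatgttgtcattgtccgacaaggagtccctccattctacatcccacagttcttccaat

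For DAPL1, 5 probes were steps of the same oligonucleotide, starting at positions 212, 213, 214, 215 and 217 of the transcript. They lie on the plus strand of chromosome 7 and span 8722 bases of the genome, so they too cross an exon junction. The first and the last of them are shown, with the 55 bases that all 5 share in capitals.
A_04_P076851: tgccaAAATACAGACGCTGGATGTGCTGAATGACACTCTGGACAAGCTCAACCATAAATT
A_04_P076847: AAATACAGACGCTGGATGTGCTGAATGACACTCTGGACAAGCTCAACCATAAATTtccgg

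The other 3 DAPL1 probes each lie within 60 unbroken bases of the genome. A_04_P017348 and A_04_P017347 start at positions 439 and 459 of the transcript, the former, the brightest, at chr7:97707548-97707607, and A_04_P017346 was placed on a cDNA sequence of its own, at chr7:97707594-97707653. Neighbours among them shared 40 and 34 bases, and the outer pair shared 14. All 3 hold the letters AATAAA, as did 3.99% of the 43595 probes in the sense direction and 2.85% on the other strand. These letters are those of the common polyadenylation signal, and their use here was not measured. The last 30 bases of the outer pair are shown with AATAAA in capitals.
A_04_P017348: cttggtaAATAAAacagcttttgtatgctc
A_04_P017346: AATAAAgcacccaaaactgcaaatccagaa

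The EMP1 probes A_04_P002957 and A_04_P002956 were neighbours at positions 2498 to 2557 and 2558 to 2617 of the reference transcript. They lie on the minus strand at chr8:26497150-26497209 and chr8:26497090-26497149, and they do not overlap. A_04_P002956 was printed on 5 spots of each array and the other on 1. Their last 30 bases are shown because the close values of both probes come from different letters.
A_04_P002957: cttttactggtttttctgtgacatttatgt
A_04_P002956: ttctagtactgtatttggcttcttcattaa

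No other probe of the array shared a run of 25 bases with any of the 12. The array files gave no exon, intron or UTR label for these positions. The DAPL1 probes carried a description of a cornea cDNA and were named through a RefSeq accession, whereas the text beside the EMP1 and MECOM probes named the gene. Since 5 of the 8 DAPL1 probes are almost 1 molecule, their number says little about the gene.

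Of 43803 spots per array, 25805 to 26339 were well above background for parthenotes and 27508 to 27835 for fertilised embryos. Over all probes, limma called 4155 of 43595 higher in parthenotes (9.53%) and 4841 lower (11.1%) at an adjusted p under 0.05. The trophectoderm markers GATA3, TFAP2C and KRT8 and the epiblast marker POU5F1 were well above background in both groups on all 4 arrays, which goes with the label of blastocyst, while ELF5 was not above background in either.

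EMP1 was well above background in both groups on every array and higher in parthenotes. The processed signal of A_04_P002956, the intensity after background subtraction and dye normalization, was 3832, 3165, 4119 and 3337 in the parthenote pools of arrays 1 to 4. In the fertilised pools it was 935, 406, 502 and 697. The lowest parthenote pool was 3.38 times the highest fertilised pool, so the groups did not overlap. Parthenote signals did not overlap and lay above the fertilised ones for all 12 probes of the 3 genes, against 23.0% of 43527 probes on the array, and since this contrast chose the genes nothing is read from that count.

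The log2 ratios of A_04_P002956, parthenote over fertilised, were 2.03, 2.96, 3.04 and 2.26 on arrays 1 to 4. Their mean was 2.57 ± 0.50 (SD, n = 4), a 5.95-fold higher signal in parthenotes with a range of 4.10-fold to 8.21-fold over the arrays. The ratios fell into a higher pair, arrays 2 and 3, and a lower pair, arrays 1 and 4. The parthenote pools varied little, with a coefficient of variation of 12.2%, and the fertilised pools varied more, with 36.8%. The array with the highest fertilised signal, array 1, had the lowest ratio.

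The neighbouring probe A_04_P002957 gave ratios of 2.13, 2.97, 3.06 and 2.37, a mean of 2.63 ± 0.45 (SD, n = 4). It ordered the arrays in the same way. The difference between both EMP1 probes was 0.06 ± 0.05 (SD, n = 4) on the log2 scale, with the same sign on all 4 arrays (exact sign-flip test, two-sided, p = 0.125, adjusted p = 0.281 over 9 probe differences). With 4 arrays this test cannot go below 0.125.

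A_04_P002956 was read on 5 spots of each array. Within an array the SD of their log2 ratios was between 0.01 and 0.04, and the SD between arrays was 0.50. On array 1 the spots ran from 2.00 to 2.06, and on array 3 from 3.01 to 3.09. Spots of an array share the pools, the labelling and the hybridisation, so their SD holds none of the spread from those steps. With normexp and median centring the mean ratio of this probe was 1.94.

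**Figure D1:**
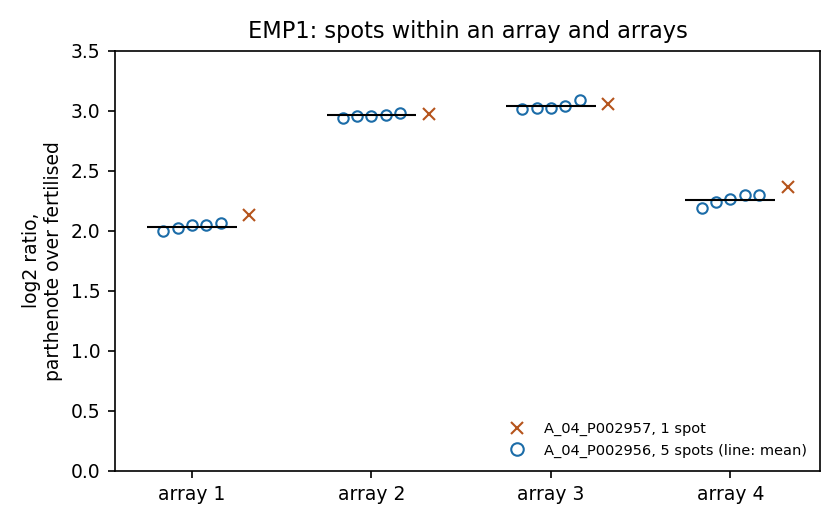
Log2 ratio of parthenote over fertilised for EMP1 on each of the 4 arrays; circles are the 5 spots of A_04_P002956, the line their mean, and the cross the single spot of A_04_P002957. Spots of an array lie close together, near 2.03 on array 1 and 3.04 on array 3, and the second probe follows the same arrays.

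MECOM was also measured in both groups on every array and was higher in parthenotes. A_04_P085612 had processed signals of 696, 475, 499 and 452 in the parthenote pools of arrays 1 to 4 and of 74.8, 38.8, 47.8 and 31.8 in the fertilised pools. All 8 values were well above background. The lowest parthenote pool was 6.04 times the highest fertilised pool, and array 1 was the highest in both groups.

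The log2 ratios of this probe were 3.22, 3.62, 3.38 and 3.83, with a mean of 3.51 ± 0.27 (SD, n = 4), or 11.4-fold. This was the smallest SD of the 12 probes. Its mean was 2.02 to 2.40 under the normexp settings, which add an offset of 50 to both channels. Of all probes on the array, 88 had a larger mean of the deposited ratios. The junction probe A_04_P085613 had ratios of 3.31, 4.11, 3.90 and 4.31, a mean of 3.91 ± 0.43 (SD, n = 4), with fertilised signals of 42.5, 17.6, 22.7 and 15.3.

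The junction probe had the larger ratio on all 4 arrays, by 0.40 ± 0.20 (SD, n = 4) on the log2 scale (exact sign-flip test, p = 0.125, adjusted p = 0.281). This difference depended on the background correction. With normexp and loess, and bad local backgrounds replaced, it was -0.05, so the probes cannot be ordered from these data.

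DAPL1 was higher in parthenotes too, but in the fertilised pools only 1 of its 8 probes was well above background on all 4 arrays. This probe, A_04_P017348, had processed signals of 166, 293, 152 and 197 in the parthenote pools and of 29.1, 28.7, 27.7 and 14.0 in the fertilised pools. The fertilised pools of arrays 1 to 3 were alike and that of array 4 was lower. In the parthenote pools array 2 was the highest, and it was the highest for all 8 DAPL1 probes.

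The log2 ratios of A_04_P017348 were 2.52, 3.36, 2.46 and 3.81, with a mean of 3.03 ± 0.66 (SD, n = 4), or 8.19-fold. Under the normexp settings the mean was 1.34 to 1.67. Arrays 2 and 4 lay above arrays 1 and 3, array 2 with the highest parthenote signal and array 4 with the lowest fertilised signal. The next probe along, A_04_P017347, had a mean ratio of 3.48 ± 0.51 (SD, n = 4), and A_04_P017346 one of 2.95 ± 0.35 (SD, n = 4). In the fertilised pools A_04_P017347 was well above background on 1 of 4 arrays and A_04_P017346 on 3 of 4, so these ratios rest in part on signals near background.

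The 5 overlapping junction probes were well above background in the parthenotes on all 4 arrays and in the fertilised pools on none. Their parthenote signals ran from 37.1 to 86.5 and the fertilised ones from 2.33 to 10.07. The deposited ratios averaged between 2.98 and 3.79 on the log2 scale, but with no fertilised signal above background their size is uncertain. The channels were also read after normexp, loess and quantile normalization of the mean signal. There the parthenote signal was 1.63-fold higher for A_04_P076848 and 1.86-fold higher for A_04_P076851, with the others between these. Raising fertilised values to at least the dimmest spot above background gave 1.62 and 1.85. These folds are thus estimates and not detection limits. The offset of 50 added in that correction draws such values towards 1, and they are open to dye bias.

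The ratios of the 7 other DAPL1 probes rest wholly or in part on fertilised signals not above background, so the probes were not ordered against A_04_P017348. The exact sign-flip test cannot go below 0.125 with 4 arrays, so it could not decide these 7 differences (adjusted p from 0.281 to 0.875). With normexp and loess, bad local backgrounds replaced, 5 of the differences turned from positive to negative. Among the steps of 1 oligonucleotide, the deposited ratio on array 1 ranged from 2.24 for A_04_P076849 to 3.43 for A_04_P076848, although these probes share 59 of 60 bases.

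**Figure D2:**
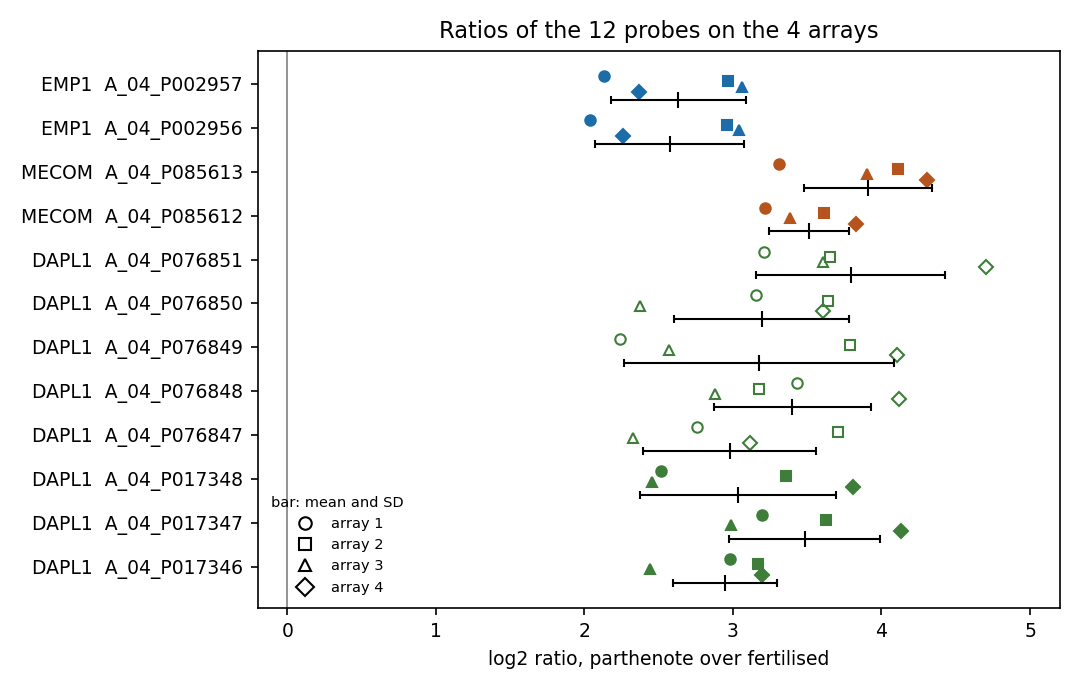
Log2 ratio of parthenote over fertilised for the 12 probes of EMP1, MECOM and DAPL1; markers are the 4 arrays, bars the mean and SD, and open markers the 5 probes with no fertilised signal above background. EMP1 lay between 2.03 and 3.06, MECOM between 3.22 and 4.31, and the overlapping DAPL1 probes reached 4.70.

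The channel values show which group carried the spread between arrays. For EMP1 and MECOM the fertilised pools varied more than the parthenote pools, with an SD of the log2 signal of 0.53 against 0.18 for EMP1 and 0.53 against 0.28 for MECOM. For DAPL1 both were of like size, 0.51 in the fertilised and 0.42 in the parthenote pools. These SDs were not compared by a test. Signals near background vary more on the log scale, and a channel value also carries what the whole array did.

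**Figure D3:**
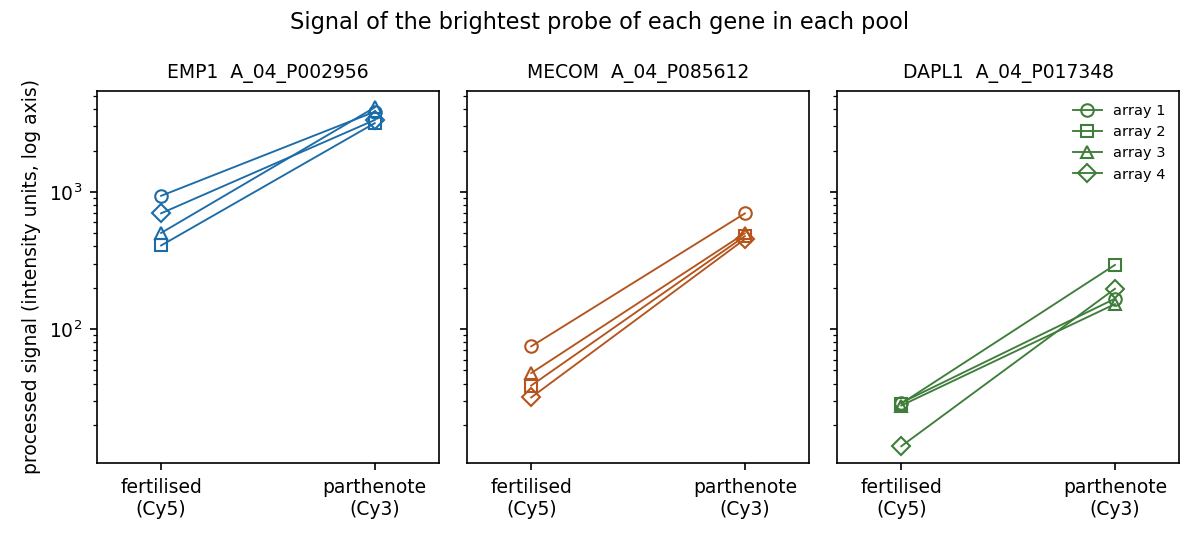
Processed signal (intensity units, log axis) of the brightest probe of each gene in the fertilised and the parthenote pool of each array, joined by a line per array. All 12 lines rise from fertilised to parthenote, for DAPL1 most steeply on array 4, and the levels of different probes are not comparable.

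The genes whose 4 ratios were most like those of each gene were found among the 24117 probes whose signals passed background in all 8 channels, by the root mean square difference of the log2 ratios. For EMP1 the nearest named genes were CCL2, a chemokine, at 0.28, S100A14 at 0.45, SMARCA2 at 0.53, SCGB1A1 at 0.53 and CFAP300 at 0.62. CCL2 had ratios of 1.63, 2.73, 2.81 and 2.03, below EMP1 on every array and with the same pairs of arrays. For MECOM they were AOX1 at 0.39, OVGP1 at 0.49, SCGB1A1 at 0.51, DAPL1 at 0.60 and CFAP141 at 0.73.

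For DAPL1 the nearest was also AOX1, an aldehyde oxidase, at 0.23, followed by SCGB1A1 at 0.44, SMARCA2 at 0.51, MECOM at 0.60 and SORBS2 at 0.60. AOX1 had ratios of 2.89, 3.45, 2.69 and 3.70, high on arrays 2 and 4 as for DAPL1. MECOM and DAPL1 were thus in each other's list, and EMP1 was in neither. OVGP1, the oviductal glycoprotein, and SCGB1A1, uteroglobin, are secretory products of the oviduct and uterus. A likeness over 4 ratios rests mostly on their mean level, and with so few arrays it is a description.

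Some markers of secretory epithelium of oviduct and uterus differed in the same direction as the 3 genes. Of 12 listed genes 7 were measured, that is, had a probe named for them. Limma called 3 higher (OVGP1, SCGB1A1 and PGR), 0 lower and 4 neither, against 9.53% of all probes called higher and 11.1% lower. At an unadjusted p under 0.05 were 4, against 15940 of 43595 probes, and 2 were called by the methods' t-test, against 4435. LCN2, among the 4 at that p, went the other way, with a mean log2 ratio of -0.57 (limma, adjusted p = 0.0897). It was higher on 0 of 4 arrays. WFDC2 had 0.01 and UPK1B -0.17, neither called. The summed processed signal of the 7 genes was 8615 to 32779 in parthenotes and 4574 to 8232 in fertilised embryos. Among them ESR1 was not above background in either group. PGR was well above background on all 4 arrays in the parthenote pools and on 1 of 4 in the fertilised pools. OVGP1 had a mean log2 ratio of 3.87 (limma, adjusted p = 0.00513).

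Of 12 motile ciliated cell markers 6 were measured and 4 were called higher (RSPH1, DNAI1, CAPS and SNTN), against 9.53% of all probes. Of these 4 only CAPS was well above background in both groups on all 4 arrays. In the fertilised pools RSPH1 and SNTN were above it on 0 of 4 arrays and DNAI1 on 1 of 4. The ratios of these 3 thus rest on signals near background. The summed signals of the 6 ciliated cell markers were 1003 to 2791 in parthenotes and 329 to 466 in fertilised embryos. FOXJ1, the factor that defines these cells, was not above background in either group. Of 7 measured leukocyte markers 4 were called higher (CD68, CD14, ITGB2 and CD48), against 9.53% of all probes. The leukocyte sums were 827 to 993 against 489 to 547, while PTPRC and CD3E were not above background. Of 9 stroma and smooth muscle markers 1, TAGLN, was called higher, near the share of all probes. Their sums were 3660 to 5070 against 2340 to 3216, and COL1A1, ACTA2 and MYH11 were not above background. The part of these cells in the signals of EMP1, MECOM and DAPL1 was not tested.

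Markers of the embryo's own layers were read in the same way. The summed trophectoderm signal was 21061 to 29747 in parthenotes and 17057 to 18869 in fertilised embryos, with KRT8 as the only gene called of 4 measured. Here and in the lists above, a sum of signals can rest mostly on its brightest gene. KRT8 had a mean log2 ratio of 0.58, and -0.11 with median centring, where the median of probes above background was -0.36. GATA3 had 0.12 and TFAP2C -0.31, the latter higher on 0 of 4 arrays, and ELF5 was not above background. The epiblast sums were 9113 to 10388 and 8063 to 8867, with POU5F1 called higher by 0.21 on the log2 scale (limma, adjusted p = 0.0118). LIN28A, the other epiblast marker measured, had -0.22 and was not called. Of the primitive endoderm markers GATA4 and DAB2 neither was called by limma or by the methods' t-test. Both were at an unadjusted p under 0.05, as were 15940 of 43595 probes, and the sums were 950 to 1192 and 1019 to 1581. In whole blastocysts, more cells of a type and more RNA per cell cannot be told apart.

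The relatives and pathway genes of the 3 were read from the fit over all probes, each by its brightest probe. Of 100 genes in 7 lists 58 were measured, of which 11 were called higher and 7 lower, against 9.53% and 11.1% of all probes. The share over all probes includes dim probes, whereas most of the 58 were above background. With dim probes left out, limma called 4928 of 26724 probes higher and 6348 lower, and 11 and 10 of the related genes. The calls rested on all arrays being present. Without replicate 1, limma called 8 higher and 5 lower. Without replicate 2 the counts were 1 and 0, without replicate 3 they were 1 and 2, and without replicate 4 they were 0 and 0. In the last, 12 and 11 were at an unadjusted p under 0.05. With all arrays 13 and 12 were at that p, against 15940 of 43595 probes in either direction. The gene called higher without replicate 2 or 3 was GABARAPL2. Normexp and loess kept 8 of the higher and 4 of the lower calls, and the methods' t-test kept 6 and 3. Of the called genes named below, PMP22, SQSTM1, S100A9, ESRP2 and GRHL2 were not called with normexp and loess. Among the same genes the methods' t-test did not call PMP22, DNMT3B, ITGA6, GATA2, SPRR3, EHF, KRT8 and ESRP2. The fit with no replicate block did not call DNMT3B.

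Of the tetraspan relatives of EMP1, 5 of 9 were measured. Limma called 2 higher and 0 lower, against 9.53% and 11.1% of all probes. At an unadjusted p under 0.05 were 3, against 15940 of 43595 probes, and the methods' t-test called 1, against 4435. The median log2 ratio was 0.56 against 0.00 over all probes. EMP3, the family member most often found in blood cells, had ratios of 1.02, 1.28, 1.42 and 1.74, a mean of 1.36 ± 0.30 (SD, n = 4; limma, adjusted p = 0.0175). PMP22, the myelin protein that gives the family its name, had a mean of 0.95 ± 0.30 (SD, n = 4; limma, adjusted p = 0.0303). Both were higher on 4 of 4 arrays and below the lowest EMP1 ratio of 2.03. Under the normexp settings EMP3 had 0.47 to 0.58 and PMP22 0.29 to 0.42. PMP22 was not called without any one of the replicates, and EMP3 was not called without replicate 2, 3 or 4.

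LIM2, a lens membrane protein, had 0.56 (adjusted p = 0.224), CLDND1 had 0.20 (adjusted p = 0.11) and PERP, a desmosomal protein, had -0.14 (adjusted p = 0.323), all from limma and none called. EMP2 was not analysed here.

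Of the PRDM family of MECOM, 3 of 14 were measured and 0 were called by limma or by the methods' t-test, with 0 at an unadjusted p under 0.05 and a median of -0.07. PRDM4 had -0.07, PRDM10 -0.22 and PRDM6, not above background in either group, 0.55. PRDM16, the closest relative of MECOM, was not analysed here.

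Of 16 partners of MECOM 8 were measured, 0 were called higher and 1 lower, against 9.53% and 11.1% of all probes. The 1 called was DNMT3B, a DNA methyltransferase, which fell by 0.25 on the log2 scale (SD 0.08, n = 4; limma, adjusted p = 0.0338). The histone methyltransferases SUV39H1 and EHMT2 had -0.10 and -0.14, and the deacetylase HDAC1 had 0.08, none of them called. The acetyltransferase KAT2B had 0.72 (limma, adjusted p = 0.0579). The list's median was -0.13.

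Of 5 genes known as MECOM targets 4 were measured. GATA2, a transcription factor of blood stem cells and trophoblast, fell by 0.64 ± 0.26 (SD, n = 4; limma, adjusted p = 0.0451). ITGA6, an integrin, had 0.34 ± 0.13 (SD, n = 4; limma, adjusted p = 0.0421), called higher here and negative, at -0.29, with median centring of the arrays. With that centring the median of probes above background was -0.36. The list held 1 gene called higher and 1 lower, against 9.53% and 11.1% of all probes, with a median of 0.19. None was as large as the 3.51 of MECOM itself.

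Of the autophagy genes listed with DAPL1, 11 of 15 were measured, with a median of -0.03. Limma called 4 higher and 2 lower, against 9.53% and 11.1% of all probes. The list also holds ubiquitin-like proteins of the autophagosome membrane. GABARAPL1 had 0.78 ± 0.12 and GABARAPL2 0.68 ± 0.09, both higher on 4 of 4 arrays, whereas GABARAP fell by 0.59 ± 0.13 (SD, n = 4 for each; limma, adjusted p = 0.0116, 0.00894 and 0.0174). With median centring GABARAPL1 had 0.23 (adjusted p = 0.0832) and GABARAPL2 0.08 (adjusted p = 0.576) in limma, and GABARAP had -1.24. The list's calls were then 0 higher and 6 lower, against 12155 and 14680 of 43595 probes. In that setting the median of probes above background was itself -0.36. The cargo receptor SQSTM1 fell by 0.31 ± 0.08 (SD, n = 4; limma, adjusted p = 0.0224). DAP itself was not analysed here.

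Of genes of stratified epithelial differentiation 11 of 17 were measured, with a median of 0.00. Limma called 2 higher and 1 lower, against 9.53% and 11.1% of all probes. ANXA1, a phospholipid-binding protein, had 2.43 ± 0.38 (SD, n = 4; limma, adjusted p = 0.0115). S100A9 was above background in 3 of 4 parthenote pools and in no fertilised pool. After normexp, loess and quantile normalization it was 1.26-fold higher in parthenotes (limma, adjusted p = 0.0143 for its deposited ratios). SPRR3, a protein of the cornified envelope, fell by 0.74 ± 0.27 by its brightest probe (SD, n = 4; limma, adjusted p = 0.0388), while its 6 probes had means from -0.76 to 0.14 and their mean was not called. The keratins KRT1 and KRT5 and the basal cell factor TP63 were not above background in either group.

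Of simple epithelium genes 16 of 24 were measured, with a median of -0.17. Limma called 2 higher and 2 lower, against 9.53% and 11.1% of all probes. EHF, an ETS factor of epithelial cells, had a mean deposited ratio of 3.53 ± 1.27 (SD, n = 4; limma, adjusted p = 0.0374), with 1.83 on array 3 and 4.82 on array 4. Its fertilised signal was well above background on 1 of 4 arrays, and its mean was 0.96 with normexp and loess and 1.09 with median centring, where ANXA1 had 2.29 and 1.82. KRT8, a keratin, had 0.58 ± 0.22 (SD, n = 4; limma, adjusted p = 0.0408), and -0.11 with median centring, where probes above background had a median of -0.36. GRHL2 and ESRP2, regulators of the epithelial state, fell by 0.50 ± 0.09 and 0.66 ± 0.23 (SD, n = 4; limma, adjusted p = 0.0137 and 0.0363). The junction genes CDH1, OCLN, TJP1 and CLDN4 had between -0.18 and 0.04 and were not called.

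**Figure D4:**
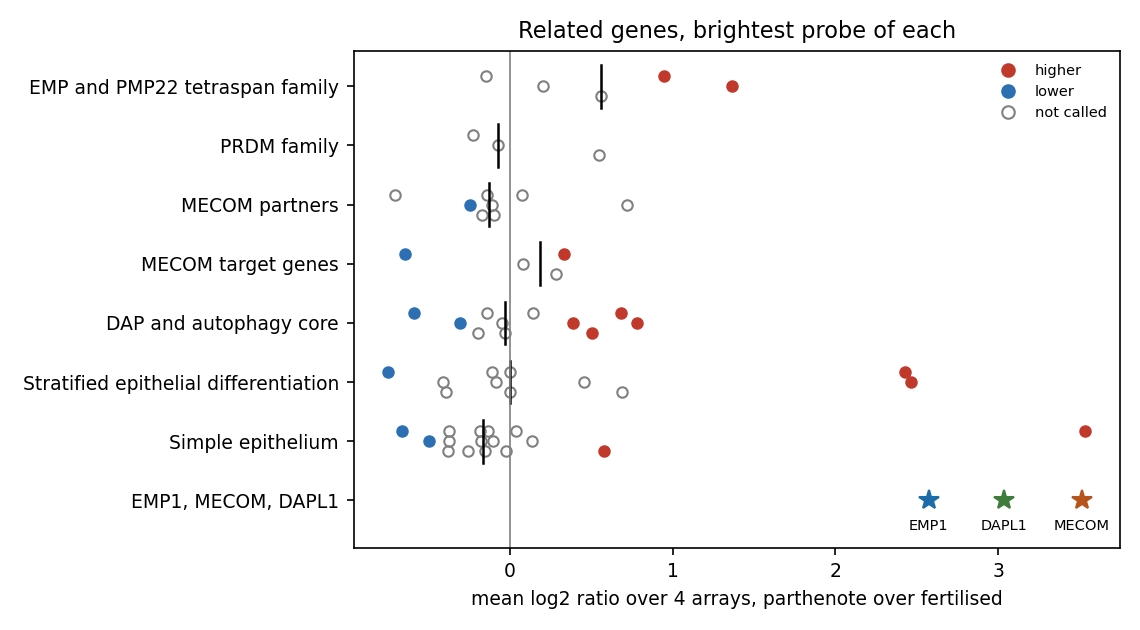
Mean log2 ratio of parthenote over fertilised for the related genes of each list (circles, brightest probe, coloured where limma called them), the median of each list (black line), and EMP1, MECOM and DAPL1 (stars). The list medians lie between -0.17 and 0.56, and the circles past 2 are ANXA1 and, with fertilised signals above background on 0 and 1 of 4 arrays, S100A9 and EHF.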

How the data were processed

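RNA of 4 parthenote and 4 fertilised pools was hybridised on 4 arrays with 2 colours. Spot values were made by the authors in Agilent Feature Extraction (10.10.1.1 in the submitters' processing notes). The deposited mean and local background intensity of a spot are not normalized, and the processed intensity has its background subtracted and its dyes normalized by the authors. The log10 ratio that the authors deposited is Cy5 over Cy3. The deposited table of all samples holds the same ratio with the sign turned, so its use as an alternative says nothing about stability. The genome build is not given in the sources used here.

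Here the log10 ratios were turned to log2 of parthenote over fertilised, marked spots (26 to 48 per array) were left out and repeated spots averaged. The mean ratio of each probe measured on 3 or more arrays was set against 0 in limma 3.58.1 (lmFit, eBayes, two-sided; R 4.3.3, data.table, version 1.17.8), with Benjamini-Hochberg adjustment over 43595 probes. Probes of a gene were compared by an exact sign-flip test. The pairing of the pools on an array was checked on deviations from the group means, which correlated by 0.60 to 0.65 within arrays. With other arrays they correlated by -0.21 on average, a value that follows from the centring and adds nothing to the check. Python 3.11.15, numpy 2.4.6, pandas 2.3.3 and matplotlib 3.10.9 served for the rest. Of 43603 probes 23236 were named, by RefSeq accession (assembly mOryCun1.1, names only) or by the array's own text. A gene counts as measured only where a probe was named for it here. A gene not measured, such as MLF1, can still have a probe on the array.

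The 3 genes and all lists were chosen with earlier results of these data known, and 2 genes of the lists are not reported here. The genes named are all probes of the 3 genes, the 5 nearest named genes to the brightest probe of each, the measured relatives, and per related list the 2 genes past the threshold with the largest mean ratio in each direction. Other list members named for contrast (those not called, and junction genes) were chosen after their values were seen. Alternatives were the ratio of processed signals, normexp with loess or median centring, the same with bad local backgrounds (over 1000 above the spot's mean signal, 6 Cy3 and 3 Cy5 spots of array 2) replaced by the array's median, filters on dim and marked spots, the methods' t-test, no replicate block, each replicate left out and a gene's mean over its probes. Nothing shows that pools were separate litters, so p-values measure the spread between these pools, and their number sets the precision.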

Additional observations from a re-analysis of the deposited data

Results flagged for a closer look

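In 3 of the 55 sets of 4 arrays examined, a single array lay far from the others, where chance marks about 1 in 20. The fertilised signal of DAPL1 probe A_04_P017348 was 4.86, 4.84, 4.79 and 3.81 on the log2 scale on arrays 1 to 4, with the gap to array 4 at 0.936 of the range. The log2 ratio of PERP was -0.41, -0.03, -0.05 and -0.08, with the gap to array 1 at 0.857 of the range. The log2 ratio of SPRR3 was -0.57, -0.63, -1.15 and -0.63, with the gap to array 3 at 0.906 of the range.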

How the results depend on the processing

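No mean ratio of EMP1, MECOM or DAPL1 changed sign under any alternative run. By its brightest probe EMP1 moved beyond 1 SD under median centring after normexp (1.94). MECOM was 2.02 with normexp and loess, 2.40 with bad local backgrounds replaced and 2.15 with median centring, and DAPL1 was 1.34, 1.67 and 1.55 under the same settings. In all of these an offset of 50 is added to both channels, which is near the size of the fertilised signals of MECOM and DAPL1. With a replicate left out, EMP1 ran from 2.42 to 2.75, MECOM from 3.40 to 3.61 and DAPL1 from 2.78 to 3.23.

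Probes called higher numbered 13912 with the ratio of processed signals, 12155 with median centring and 2032 with the methods' t-test, and probes called lower 7487, 14680 and 2403. With a replicate left out, the counts ran from 531 to 2658 higher and from 708 to 3078 lower. The share called higher was 46.2% of calls in the paired fit of the deposited ratios and 65.0% with the ratio of processed signals, which is also paired. The fit with no replicate block dropped the pairing and used the processed signals. It called 11117 probes higher, 68.0% of its calls, against 13912 with the paired ratio of the same signals. The mean ratios of the 3 genes were the same in these fits. Median centring moved the median of probes above background to -0.36.

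Related genes called higher were 6 with the methods' t-test and ran from 0 to 8 with a replicate left out. Those called lower were 11 with the ratio of processed signals, 11 with normexp and loess (bad local backgrounds replaced), 28 with median centring and 3 with the methods' t-test, and ran from 0 to 5. The signs of ITGA6 (-0.29) and KRT8 (-0.11) reversed under median centring, where the median of probes above background was -0.36.

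With normexp and loess, bad local backgrounds replaced, the differences from the brightest probe reversed to -0.05 for MECOM A_04_P085613 and, for DAPL1, to -0.78 (A_04_P076851), -0.87 (A_04_P076850), -0.81 (A_04_P076849), -0.96 (A_04_P076848) and -0.26 (A_04_P017347). With a replicate left out, A_04_P076847 ran from -0.19 to 0.16 and A_04_P017346 from -0.27 to 0.09, both above 0 without replicate 4. The cause was not tested. The fertilised signal of the 5 DAPL1 junction probes was above background on 0 arrays.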
